A study of Mus musculus with 40 samples.

Results

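The Iroquois (*Irx*) genes are 6 of the 21924 protein-coding genes whose promoters were examined, and all 6 were taken by name: *Irx1*, *Irx2*, *Irx3*, *Irx4*, *Irx5* and *Irx6*. H3K27me3 and H3K4me3 peaks were read at their promoters (the 2000 bp before each annotated transcript start and the 1000 bp after it), in their gene bodies and in the space between them. The peaks came from oligodendrocyte progenitor cells (OPCs), immunopanned with PDGFRa from mice at postnatal days 5 to 7 and kept in proliferation medium. Tissue was pooled by region and genotype within litters, and the regions were the brainstem and the dorsal telencephalon, which the labels call cortex. Mutant cultures are labelled K27M, from litters the labels call AMGFAP-Cre;K27M, for which the study describes a K27M allele at the endogenous *H3-3a* locus that hGFAP-Cre switches on in neural stem and progenitor cells. The other cultures are labelled Control, and the study describes them as littermates. For each mark there were 2 brainstem cultures (59 and 61) and 3 telencephalon cultures (59, 60 and 61), each with a control and a K27M library, giving 5 matched pairs and 10 libraries per mark.

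Iroquois proteins are homeodomain transcription factors of the TALE class, which carry extra residues between helices of the homeodomain. In mammals the genes lie in 2 clusters of 3, and they are known for dividing the neural tube, the heart and other organs into territories. In the central nervous system they are expressed mainly in the midbrain, hindbrain and spinal cord rather than in the dorsal telencephalon. H3K27me3 is deposited by the Polycomb complex PRC2 and accompanies gene silencing, H3K4me3 accompanies active or poised promoters, and a promoter with both is called bivalent. The K27M histone interferes with PRC2.

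The IrxA cluster spans 1312 kb of chromosome 13 (mm10) and holds *Irx1* (chr13:71957921-71963723, minus strand), *Irx2* (chr13:72628820-72634198, plus strand) and *Irx4* (chr13:73260479-73269608, plus strand). The IrxB cluster spans 882 kb of chromosome 8 and holds *Irx3* (chr8:91798525-91802067, minus strand), *Irx5* (chr8:92357625-92376286, plus strand) and *Irx6* (chr8:92674288-92680956, plus strand). Several transcript starts were merged for each gene, so the promoter of *Irx1* covered 7283 bp and that of *Irx2* 6777 bp, against 3018 bp to 3538 bp for the other 4 genes.

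The promoters shared a high content of CpG dinucleotides. They held a median of 4.95 CpG per 100 bp, against 1.80 for the 21911 protein-coding genes with sequence, and the 6 lay between percentiles 88.0 and 99.9 of those genes. *Irx5* was the richest at 8.90 CpG per 100 bp and *Irx6* the poorest at 3.48. RefSeq promoter sequences were at hand for *Irx2*, *Irx3* and *Irx4*. The bases upstream of the start are shown for *Irx2*, whose H3K27me3 was seen in a single region, and for *Irx4*, whose H3K27me3 was seen in every library. Both are GRCm38.p6, plus strand, 5′ to 3′, with each CpG in capitals. The *Irx2* stretch is chr13:72628570-72628819 and the *Irx4* stretch is chr13:73260247-73260478.
Irx2 promoter: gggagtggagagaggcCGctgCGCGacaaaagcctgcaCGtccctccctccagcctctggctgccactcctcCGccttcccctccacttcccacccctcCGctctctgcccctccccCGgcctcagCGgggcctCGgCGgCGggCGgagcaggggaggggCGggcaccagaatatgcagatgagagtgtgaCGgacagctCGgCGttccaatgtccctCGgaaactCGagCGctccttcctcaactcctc
Irx4 promoter: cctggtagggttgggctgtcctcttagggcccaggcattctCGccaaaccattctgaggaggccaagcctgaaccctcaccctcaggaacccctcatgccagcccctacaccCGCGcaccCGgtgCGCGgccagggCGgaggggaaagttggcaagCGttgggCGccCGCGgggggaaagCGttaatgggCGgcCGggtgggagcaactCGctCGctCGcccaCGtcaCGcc
Each of these stretches contained 19 CpGs, in 250 bp at *Irx2* and 232 bp at *Irx4*.

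The files list peaks and no read counts, so the sequencing depth behind each peak is unknown here and the number of peaks stands in for it. H3K27me3 libraries held 4739 to 64808 peaks over 13.3 to 152 Mb, with fewer peaks in K27M than in the matched control in every pair. H3K4me3 libraries held 20961 to 31200 peaks. In the telencephalon, culture 59 had the lowest median H3K4me3 fold enrichment over input in both genotypes, at 3.57 in the control and 4.98 in K27M. The control of telencephalon culture 60 had the highest, at 13.8. At the promoters of 5 OPC markers (*Pdgfra*, *Cspg4*, *Olig1*, *Olig2*, *Sox10*), H3K4me3 peaks were present in every library and H3K27me3 peaks in none. H3K4me3 was absent in every library from the 4 microglial and from 2 of 3 endothelial marker promoters. It was present in every library at 1 of 4 astrocyte, 4 of 4 neuronal and 0 of 3 endothelial marker promoters. The remaining astrocyte and endothelial promoters (*Aqp4*, *Aldh1l1*, *Gfap* and *Cldn5*) had a peak in some libraries. The telencephalon genes *Emx1* and *Emx2* had an H3K4me3 peak in every telencephalon library and the 3 brainstem genes (*Hoxa2*, *Hoxa3*, *Hoxb3*) in every brainstem library. These peaks were not confined to a region. *Emx1* also had a peak in every brainstem library and *Emx2* in both brainstem controls. *Hoxa2* and *Hoxa3* had a peak in 2 of 3 telencephalon controls and *Hoxb3* in 1, and none had a peak in a K27M telencephalon library. The part of other cell types in the results below was not tested.

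The first comparison asked how the *Irx* promoters of control OPCs differed between regions. H3K27me3 covered the promoters of *Irx1*, *Irx2*, *Irx3* and *Irx5* in the telencephalon and was absent from them in the brainstem, whereas *Irx4* was covered from end to end in both regions and *Irx6* was covered to a varying extent in both. Counting both genotypes, 4 of the 6 genes had a promoter H3K27me3 peak in 6 of 6 telencephalon libraries and 0 of 4 brainstem libraries. Across all protein-coding genes this pattern was found at 5 of 21924 (0.0228%). The fifth gene was *Skap2*, which lies beside the HoxA cluster and is named here because its pattern was seen. The reverse pattern was found at another 5 genes (0.0228%), none of them *Irx* genes. A promoter H3K27me3 peak in all 10 libraries was found at 2 of the 6 genes (*Irx4* and *Irx6*) and at 5.8% of all genes. The same 2 genes had a peak in every brainstem library (9.2% of all genes), and 6 of 6 had a peak in every telencephalon library (5.97%).

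**Figure D1:**
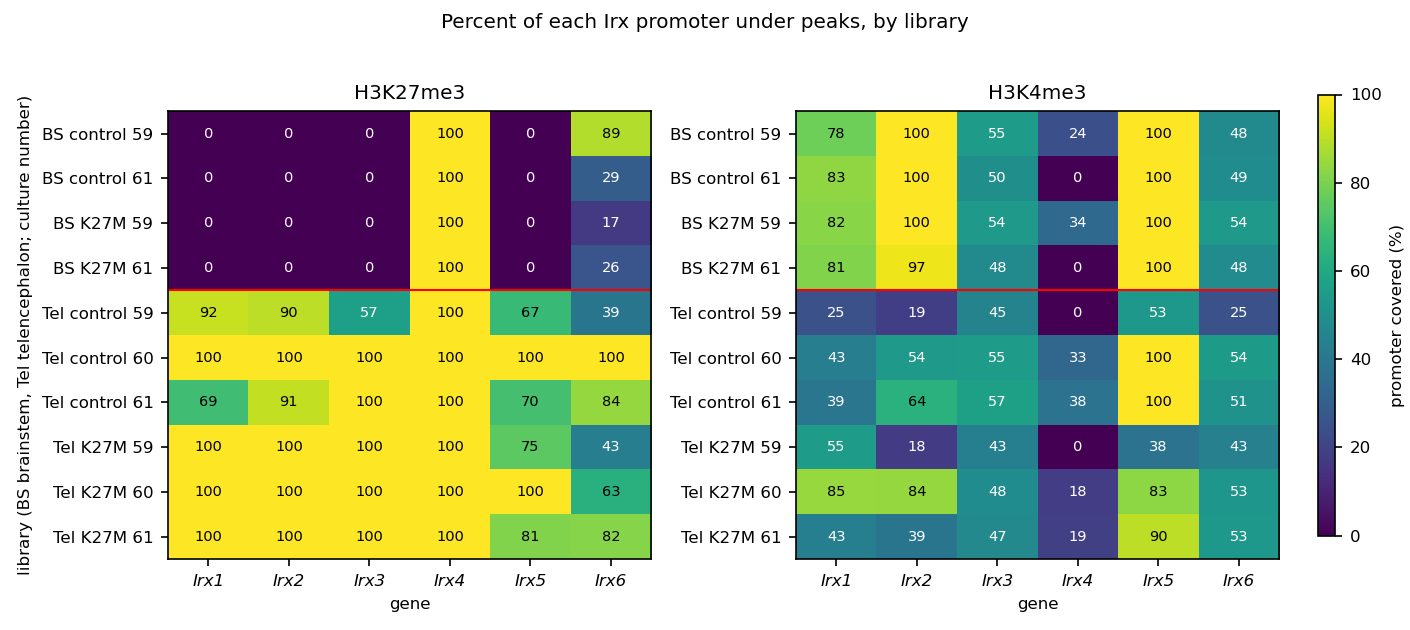
Percent of each promoter under peaks of H3K27me3 (left) and H3K4me3 (right), with libraries in rows (BS, brainstem; Tel, telencephalon) and genes in columns; the red line separates the regions. H3K27me3 values of 0 fill the brainstem rows of *Irx1*, *Irx2*, *Irx3* and *Irx5*, and the *Irx4* column is at 100 throughout.

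*Irx1* and *Irx2*, neighbours in the IrxA cluster with roles in patterning the hindbrain, limb and lung, behaved alike. The *Irx1* promoter was covered at 91.6%, 100% and 69.2% in telencephalon controls 59, 60 and 61, and at 0% in brainstem controls 59 and 61. The *Irx2* promoter was covered at 90.2%, 100% and 90.7% in the telencephalon controls and again at 0% in both brainstem controls. The regions therefore did not overlap at either gene. The differences in mean coverage were 86.9 percentage points for *Irx1* and 93.6 for *Irx2*. Each gave p = 0.1 in an exact two-sided permutation test over the 10 assignments of 3 and 2 cultures, which is the smallest value this design allows, and an adjusted p of 1 over 7982 genes. Since nothing could pass 0.05, the differences are given as values. A permutation p of 0.1 says only that no other of the 10 assignments gave as large a difference in means, and it does not measure the spread among cultures.

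*Irx3* and *Irx5*, the IrxB genes with overlapping roles in neural tube and heart patterning, showed the same absence in the brainstem. The *Irx3* promoter was covered at 56.6%, 100% and 100% in telencephalon controls 59, 60 and 61, and the *Irx5* promoter at 67.4%, 100% and 70.4%. Both were at 0% in the brainstem controls. The differences were 85.5 and 79.3 percentage points (exact permutation p = 0.1 for each, adjusted p = 1). Non-overlap of this kind, with telencephalon above brainstem in all controls, was found at 4 of the 6 genes and at 0.614% of genes. The opposite order was found at none of the 6 and at 2.32% of genes. With the K27M libraries included, the same 4 genes kept telencephalon above brainstem in all libraries, against 0.1% of genes, and 0.2% had the opposite order.

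*Irx4*, best known as a gene of the cardiac ventricle, was covered at 100% in all 10 libraries. *Irx6*, known from bipolar neurons of the retina, varied between cultures as much as between regions. Its promoter was covered at 39.1%, 100% and 84.1% in the telencephalon controls and at 88.6% and 29.5% in the brainstem controls. The groups overlapped, and the difference of 15.4 percentage points gave an exact permutation p of 0.6. Without brainstem culture 61 this difference was -14.2 percentage points.

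The size of the domains followed the same division. Within 10 kb of the gene, H3K27me3 covered 14.4, 20.8 and 10.6 kb at *Irx1* in telencephalon controls 59, 60 and 61, and 1.94 and 0 kb in brainstem controls 59 and 61. At *Irx2* it covered 19.5, 25.4 and 23.2 kb against 0 kb in every brainstem library. At *Irx5* it covered 17.1, 27.02 and 22.5 kb against 1.11 and 0 kb. These 3 genes had the largest regional differences in domain length of the family, at 14.3, 22.7 and 21.7 kb.

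At *Irx3* the corresponding values were 8.53, 15.9 and 14.4 kb in the telencephalon and 4.81 and 0.358 kb in the brainstem. The brainstem peaks of *Irx3* lay outside its promoter, and a peak touched the gene body in 3 of 4 brainstem libraries. *Irx4* had 17.2, 27.2 and 27.8 kb in the telencephalon controls and 21.6 and 16.9 kb in the brainstem controls, so the regions overlapped. Telencephalon exceeded brainstem without overlap in all controls at 4 of the 6 genes on this measure and at 1.2% of genes, and the opposite order at 0 of 6 and at 3.68%. In all libraries of both genotypes, telencephalon exceeded brainstem at the same 4 genes and at 0.128% of genes, and the opposite order was found at 0 of 6 and at 0.369%.

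**Figure D2:**
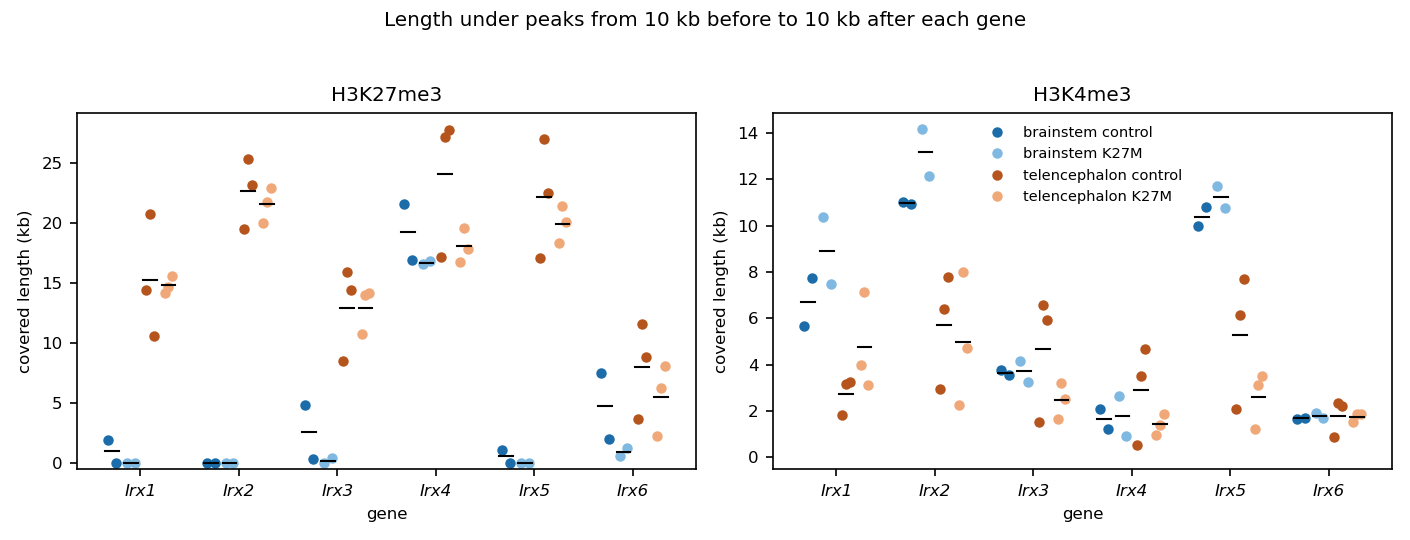
Length under peaks from 10 kb before to 10 kb after each gene, in kb, for H3K27me3 (left) and H3K4me3 (right); each point is a library and each black line a group mean. For H3K27me3, *Irx2* is at 0 kb in every brainstem library, and for H3K4me3 the brainstem points of *Irx2* and *Irx5* lie above all telencephalon points.

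H3K4me3 was present at 5 of the 6 promoters in every library of both regions. A peak in every brainstem library was found at 60.4% of all genes and in every telencephalon library at 58.3%. The exception was *Irx4*, with a promoter peak in 2 of 4 brainstem and 4 of 6 telencephalon libraries. A peak in every library of a single region and none of the other was found at 0 of 6 genes, and at 0.00456% of genes in either direction. Over the promoter itself, H3K4me3 coverage was higher in brainstem than telencephalon in all controls at 2 of the 6 genes (*Irx1* and *Irx2*; 16.5% of genes) and in all libraries of both genotypes at *Irx2* (0.309%). At *Irx1* the difference in mean coverage, telencephalon minus brainstem, was -45.0 percentage points over all its starts and -0.88 over the 5'-most start alone. The opposite order was found at 0 of 6, against 0.8% of genes in controls and 0.0891% in both genotypes.

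In the brainstem controls, H3K4me3 domains at *Irx1*, *Irx2* and *Irx5* were longer than in the telencephalon controls. Within 10 kb of *Irx5*, it covered 9.97 and 10.8 kb in brainstem controls 59 and 61 and 2.09, 6.15 and 7.68 kb in telencephalon controls 59, 60 and 61. At *Irx2* it covered 11.0 and 10.9 kb in the brainstem controls and 2.94, 6.41 and 7.79 kb in the telencephalon controls. At *Irx1* it covered 5.67 and 7.76 kb against 1.82, 3.16 and 3.26 kb. The groups did not overlap at these 3 genes, while 18.3% of all genes had brainstem above telencephalon in all controls. Exact permutation p was 0.1 for *Irx1* and *Irx2* and 0.2 for *Irx5*, with adjusted p of 0.967, 0.967 and 1.

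With the K27M libraries included, brainstem stayed above telencephalon in all 10 libraries at 2 of the 6 genes (*Irx2* and *Irx5*), against 0.232% of genes. Telencephalon above brainstem was found at 0 of 6, against 0.843% of genes in controls and 0.0792% in all libraries. At *Irx5* a single continuous H3K4me3 peak of 9965 to 11702 bp was called in each brainstem library, whereas the longest peak in a telencephalon library was 5975 bp. *Irx3* did not follow this pattern, with 3.75 and 3.55 kb in the brainstem controls and 1.54, 6.59 and 5.92 kb in the telencephalon controls. *Irx6* also overlapped between regions. Telencephalon culture 59, with its low H3K4me3 enrichment, had the lowest telencephalon value at each of the 6 genes among the controls.

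Both marks were then laid over each other within the same culture. In the brainstem, none of the H3K4me3 within 10 kb of *Irx1* or *Irx2* lay under H3K27me3 in any library. In the telencephalon the median share of H3K4me3 lying under H3K27me3 was 98.0% at *Irx1* (range 55.5% to 100%), 100% at *Irx2* (55.3% to 100%), 96.1% at *Irx3* (8.17% to 100%) and 83.7% at *Irx5* (32.9% to 100%). In the brainstem it was at most 32.3% at *Irx3* and at most 4.19% at *Irx5*. At *Irx4* the share was 100% in all 10 libraries of both regions. Within 10 kb of that gene H3K4me3 covered only 0.545 to 4.66 kb, while H3K27me3 covered 16.6 to 27.8 kb. At *Irx6* the medians were 49.1% in the brainstem and 73.3% in the telencephalon, with ranges that overlapped. Overlap of peaks from separate immunoprecipitations does not show that both marks sat on the same molecules.

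The second comparison asked what K27M did to these peaks. The *Irx* promoters that carried H3K27me3 in all controls of a region carried it in all K27M cultures of that region too. In the telencephalon this held for 6 of 6 genes, against 61.6% of the 2122 genes with a promoter peak in every telencephalon control. In the brainstem it held for 2 of 2 genes (*Irx4* and *Irx6*), against 58% of 3478. In the telencephalon controls, the promoter peaks of *Irx1* to *Irx5* lay at percentiles 85.7 to 99.8 of fold enrichment within their library. Those of *Irx6* lay at 18.9 to 97.3. The comparison genes were not matched for this rank, and retention among peaks of like rank was not tested. No K27M brainstem culture had a promoter H3K27me3 peak at *Irx1*, *Irx2*, *Irx3* or *Irx5*.

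At *Irx1* to *Irx5*, promoter coverage in K27M telencephalon cultures was equal to that of the matched controls or higher. *Irx1*, *Irx2*, *Irx3* and *Irx4* were covered at 100% in all 3 K27M telencephalon cultures, and *Irx5* at 74.7%, 100% and 81.2% in cultures 59, 60 and 61. Over the 5 pairs, the median difference, K27M minus control, was 3.72 percentage points for the 6 *Irx* genes and -8.56 for all 7997 genes with a peak. These medians are not like for like. At *Irx1*, *Irx2*, *Irx3* and *Irx5* both libraries were at 0% in the brainstem pairs and at 100% in telencephalon culture 60. Those pairs, and every pair at *Irx4*, gave a difference of 0. *Irx6* was lower in K27M on average, with a mean difference of -22.1 percentage points. The largest differences were in brainstem culture 59 (-71.8) and telencephalon culture 60 (-36.7). Its exact sign-flip permutation p was 0.25 (adjusted p = 0.499), where the smallest p for 5 pairs is 0.0625. At equal peak number the difference was -4.19 percentage points. No *Irx* promoter was below control in 5 of 5 pairs, a pattern found at 12.7% of genes, and none was above control in 5 of 5 (0.1%). These counts were largely fixed in advance. *Irx1*, *Irx2*, *Irx3* and *Irx5* were at 0% in both brainstem controls and could not fall there. All 6 promoters were at 100% in the control of telencephalon culture 60 and could not rise there.

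Fold enrichment over input, the value that MACS2 gives each peak, was higher in K27M for the peaks at most of the retained promoters. It belongs to a whole broad peak, not to the promoter alone, and the highest value among peaks touching the promoter was taken. Peak lengths differed too. In telencephalon culture 61 the longest was 34118 bp in the control and 17858 bp in K27M at *Irx4*, and 5539 bp and 15290 bp at *Irx1*. At *Irx2* the fold was 3.59, 11.8 and 3.84 in telencephalon controls 59, 60 and 61 and 6.74, 19.0 and 27.4 in the matched K27M cultures. At *Irx5* it was 3.40, 14.7 and 7.08 in controls and 7.58, 21.6 and 31.7 in K27M. *Irx3* and *Irx4* were also higher in K27M in 3 of 3 telencephalon pairs. *Irx1* was lower in culture 60, at 12.4 in the control and 10.8 in K27M, and *Irx6* was lower in culture 60, at 6.47 and 4.55.

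On the log2 scale, the mean K27M to control ratio in the telencephalon was 1.48 ± 1.18 (SD, n = 3) at *Irx2*, 1.29 ± 0.81 at *Irx5*, 1.16 ± 0.40 at *Irx4*, 1.16 ± 0.48 at *Irx3*, 0.86 ± 1.40 at *Irx1* and -0.13 ± 0.33 at *Irx6*. The median over the 1308 genes with a peak in all 6 libraries was 0.23, with quartiles of -0.11 and 0.73. Higher fold in every telencephalon pair was found at 4 of the 6 *Irx* genes and at 43.7% of those 1308 genes. In the brainstem, *Irx4* was 8.14 and 6.18 in controls 59 and 61 and 11.1 and 12.7 in K27M. It was higher in both pairs, as at 47.4% of 2018 genes, and *Irx6* was not. Fold enrichment is relative to each library's own background and was not scaled to the Drosophila spike-in, so these ratios do not measure the absolute amount of H3K27me3.

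Away from the genes the picture differed. Over the IrxA span, H3K27me3 peaks covered 4.65%, 12.4% and 10.8% in telencephalon controls 59, 60 and 61 and 3.84%, 4.67% and 5.14% in the matched K27M cultures. In the brainstem the values were 3.58% and 1.23% in controls 59 and 61 and 0.910% and 0.917% in K27M. K27M was below control in 5 of 5 pairs, with a mean difference of -3.43 ± 3.18 percentage points (SD of 5 differences; exact sign-flip permutation p = 0.0625, the smallest possible). The IrxB span gave -3.10 ± 2.65 percentage points, also lower in 5 of 5 pairs (exact p = 0.0625). Both differences depended on which peaks were counted. With the same number of peaks from each library they were -0.61 (IrxA, exact permutation p = 0.4375) and -0.65 (IrxB, exact permutation p = 0.25). With peaks of −log10 q of at least 3 they were -1.55 (exact permutation p = 0.0625) and -1.66 (exact permutation p = 0.125), and with fold of at least 3 they were -0.91 and -0.53. Between regions, telencephalon controls exceeded brainstem controls by 6.87 percentage points over IrxA (exact permutation p = 0.2) and 5.12 over IrxB (exact permutation p = 0.3), or by 4.08 and 4.49 at equal peak number (exact permutation p = 0.1 for each).

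The difference lay mostly outside the 10 kb around the genes. For this split the windows were cut at the edges of each span, so the outer flanks of *Irx1*, *Irx4*, *Irx3* and *Irx6* were not counted. Within 10 kb of an IrxA gene, H3K27me3 in K27M was 80.8% to 100% of the matched control length in the telencephalon, while elsewhere in the span it was 12.5% to 34.9%. Within 10 kb of an IrxB gene it was 77.7% to 106%, and elsewhere 6.33% to 38.9%. The length under H3K27me3 over the whole genome was 14.1% to 50.2% of control in these 3 pairs. Not every peak far from the genes was lost in K27M. All 3 K27M telencephalon cultures had peaks between 330.5 and 346.9 kb from the left edge of *Irx1*. In culture 61 a single K27M peak filled this stretch and the control had only short peaks there. In culture 60 a single control peak filled it and the K27M peaks were shorter. In both brainstem pairs no H3K27me3 peak remained in the IrxA span beyond 10 kb of a gene, against 29.5 and 3.82 kb in controls 59 and 61. In the IrxB span the brainstem pairs differed: within 10 kb of a gene K27M was 5.25% of control in culture 59 and 67.8% in culture 61, and elsewhere 4.67% and 42.6%. In both spans the length away from the genes was greatest in the 3 controls with the most peaks, brainstem 59 and telencephalon 60 and 61. The split by distance from the genes was not recomputed at equal peak number.

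**Figure D3:**
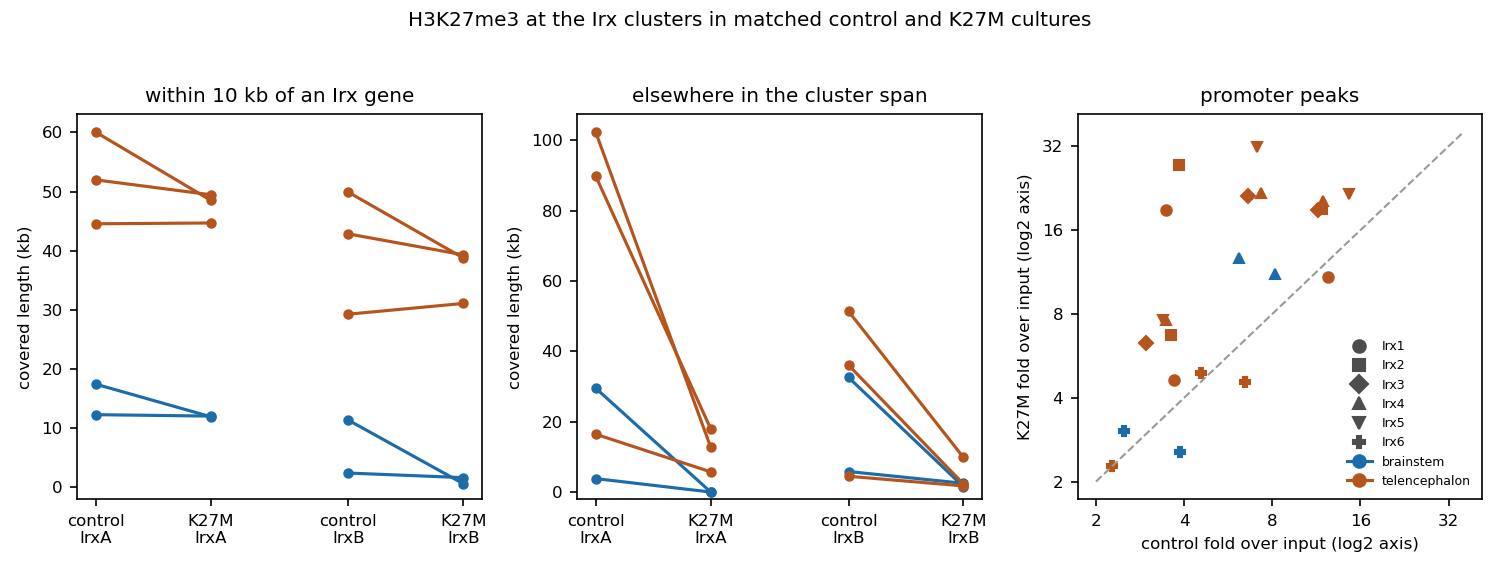
H3K27me3 in matched cultures, with brainstem in blue and telencephalon in orange: length covered within 10 kb of an *Irx* gene, counted inside the cluster span only (left), and elsewhere in each cluster span (middle), in kb, with a line per culture pair, and fold enrichment of the promoter peak in control and K27M (right, log2 axes, dashed line at equality). Elsewhere in the span every line slopes down, to at most 18.0 kb in K27M.

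At *Irx4* and *Irx6* the length within 10 kb was below control in 5 of 5 pairs, at a mean of -4.63 kb and -3.03 kb (exact permutation p = 0.0625 and adjusted p = 0.272 for each). This pattern was found at 2 of the 6 genes and at 22.9% of genes, and the opposite at 0 of 6 and at 0.0978%. At *Irx4* the K27M libraries ranged from 16.6 to 19.6 kb and the controls from 16.9 to 27.8 kb.

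H3K4me3 peaks remained in K27M wherever every control of a region had them, at 5 of 5 promoters in each region, against 99.7% of genes in the telencephalon and 98.1% in the brainstem. Coverage of the *Irx3* promoter by H3K4me3 was lower in K27M in 5 of 5 pairs, by a mean of -4.23 percentage points (exact permutation p = 0.0625, adjusted p = 0.835). That pattern was found at 1 of the 6 genes and at 0.706% of genes, and the opposite at 0 of 6 and at 5.5%. For H3K4me3 within 10 kb, 0 of 6 genes were below control in 5 of 5 pairs (0.603% of genes) and 0 of 6 above (4.37%). In the telencephalon, H3K4me3 fold at *Irx5* was 2.36, 85.5 and 55.7 in controls 59, 60 and 61 and 3.38, 19.4 and 14.6 in K27M. All 5 genes with a peak throughout were higher in K27M in culture 59 and lower in cultures 60 and 61, so none was higher in every pair (3.16% of genes). The medians over 12789 genes had the same signs, at 0.67, -1.04 and -0.65 on the log2 scale. In the brainstem, fold was higher in K27M in both pairs at 4 of 5 genes (*Irx2*, *Irx3*, *Irx5* and *Irx6*), against 41.5% of genes.

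Between the genes, a few stretches were marked in every library. The longest was an H3K4me3 stretch of 919 bp between *Irx5* and *Irx6* (chr8:92460195-92461113), 83.9 kb from the end of *Irx5* and 4653 bp from the lincRNA *Gm45336*. An H3K27me3 peak also touched it in 4 of the 10 libraries. Its fold enrichment ranged from 3.25 to 95.5 over the 10 libraries, and it had 11.5 CpG per 100 bp. That is above the density of every *Irx* promoter window, but those windows were longer, at 3018 to 7283 bp, so the values are not like for like. An H3K4me3 stretch of 898 bp (chr13:72639356-72640253) lay within 10 kb beyond the end of *Irx2* and had 4.23 CpG per 100 bp. H3K27me3 covered chr8:92136109-92136697, between *Irx3* and *Irx5*, in every library, with a fold of 2.38 to 6.00 and 2.04 CpG per 100 bp. It was the longest H3K27me3 stretch beyond 10 kb of an *Irx* gene in either cluster that was present in all 10 libraries, and no library had H3K4me3 there. The central 300 bp of these 3 stretches are shown, plus strand of GRCm38.p6, 5′ to 3′, with each CpG in capitals. The coordinates in order are chr8:92460504-92460803, chr13:72639655-72639954 and chr8:92136253-92136552.
H3K4me3 element between Irx5 and Irx6: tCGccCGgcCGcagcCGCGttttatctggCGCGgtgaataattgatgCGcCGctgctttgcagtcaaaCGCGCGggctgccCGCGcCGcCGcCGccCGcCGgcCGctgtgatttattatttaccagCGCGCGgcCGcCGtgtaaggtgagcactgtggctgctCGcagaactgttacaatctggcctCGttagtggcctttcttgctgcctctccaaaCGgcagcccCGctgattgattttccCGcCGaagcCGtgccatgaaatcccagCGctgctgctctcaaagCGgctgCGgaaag
H3K4me3 element between Irx2 and Irx4: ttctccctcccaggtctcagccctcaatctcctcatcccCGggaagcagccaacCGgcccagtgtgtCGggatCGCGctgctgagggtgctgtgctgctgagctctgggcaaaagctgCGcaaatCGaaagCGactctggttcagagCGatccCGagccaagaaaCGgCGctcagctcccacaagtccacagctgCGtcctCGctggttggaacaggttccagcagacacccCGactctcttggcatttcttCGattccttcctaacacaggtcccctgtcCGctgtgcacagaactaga
H3K27me3 element between Irx3 and Irx5: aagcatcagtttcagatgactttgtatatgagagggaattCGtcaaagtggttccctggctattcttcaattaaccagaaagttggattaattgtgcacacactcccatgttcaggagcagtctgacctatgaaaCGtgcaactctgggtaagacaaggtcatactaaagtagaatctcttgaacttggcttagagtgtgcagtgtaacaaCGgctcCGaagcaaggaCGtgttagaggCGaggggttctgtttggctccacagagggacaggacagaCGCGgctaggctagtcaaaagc
These held 35, 17 and 8 CpGs in turn, and none overlapped an annotated exon. These are reference sequences of the C57BL/6J genome.

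**Figure D4:**
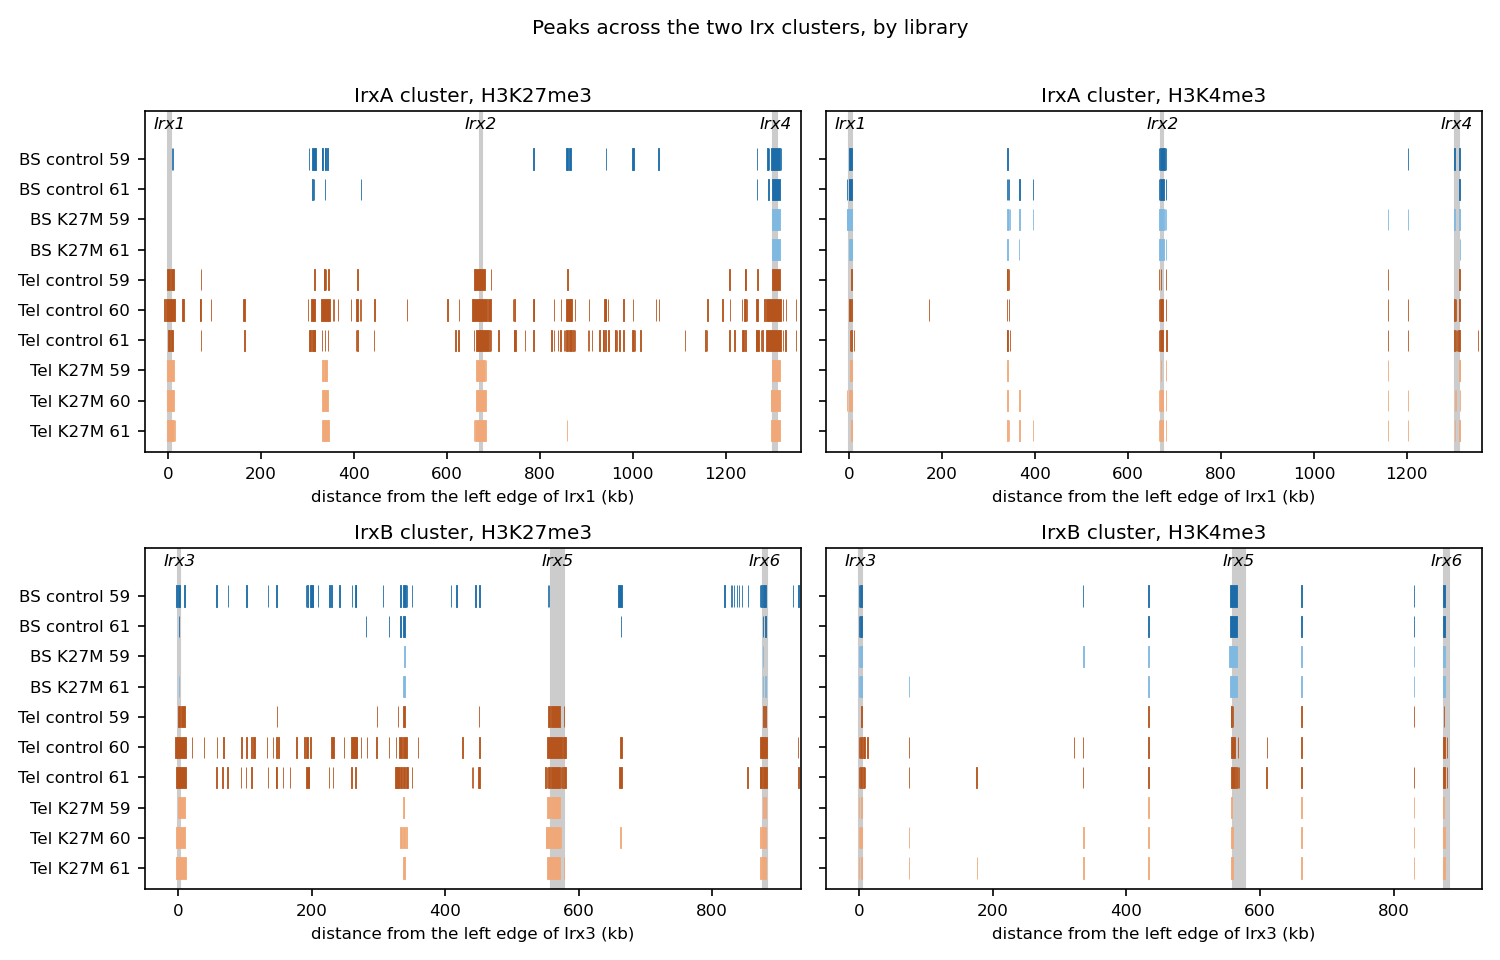
Peaks of H3K27me3 (left) and H3K4me3 (right) over the IrxA (top) and IrxB (bottom) clusters, a row per library and a bar per peak, with gene bodies shaded in grey; the horizontal axis is the distance in kb from the left edge of *Irx1* or *Irx3*. The scattered H3K27me3 bars between genes are mostly in control rows, and the blocks at the genes are in control and K27M rows alike. The K27M telencephalon rows of IrxA also keep bars between 330.5 and 346.9 kb, far from the genes.

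Some non-coding genes that start beside *Irx* promoters shared the regional pattern. The lincRNA *Gm20554*, on the opposite strand to *Irx2*, and *Crnde*, on the opposite strand to *Irx5*, had promoter H3K27me3 peaks in 6 of 6 telencephalon and 0 of 4 brainstem libraries. *Irx3os*, antisense to *Irx3*, did not share it, with peaks in 6 of 6 and 3 of 4. Their windows overlap those of the *Irx* genes, so they are not separate observations. Of the 6 nearest protein-coding genes outside each cluster's span (3 on either side), none had the telencephalon-only pattern. *Fto* and *Rpgrip1l*, next to *Irx3*, had no promoter H3K27me3 peak in any library and an H3K4me3 peak in every library.

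The rest of the TALE class differed from the *Irx* family. None of its 12 other members had promoter H3K27me3 in every telencephalon and no brainstem library, 2 (*Mkx* and *Tgif1*) had it in every library, and 5 had it in none. All 12 had promoter H3K4me3 in every library. The largest regional differences in mean H3K27me3 coverage among them, over both genotypes, were 20.1 percentage points at *Tgif1* and -20.5 at *Tgif2*.

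By mean absolute difference in promoter coverage over the 20 libraries, the gene most like *Irx1* was *Irx2* (9.0 percentage points). *Zfp503* was nearest to *Irx3* (9.18), *Sim1* to *Irx4* (2.56) and *1810062G17Rik* to *Irx6* (9.36). The median over all genes was 43.0 to 57.9 points for these 4 *Irx* genes. Likeness crossed the clusters: *Irx2* and *Irx5*, on different chromosomes, differed by 14.0 points, while *Irx2* and *Irx4*, in the same cluster, differed by 46.3.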

How the data were processed

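Chromatin immunoprecipitation libraries for H3K27me3 and H3K4me3 had been aligned to mm10 with BWA 0.7.17-r1188, and peaks had been called against input with MACS2 2.2.7.1, per the submitters' processing notes and the study's methods. Peaks were deposited per library, with no pooling. The authors' columns give fold enrichment (a ratio over input), −log10 p and −log10 q, and a display score that was not used here. Deposited peaks were not scaled to the Drosophila spike-in.

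Annotation was GENCODE M21. Peaks of a library were merged and the covered length of each window was computed with Python 3.11.15, numpy 2.4.6 and pandas 2.3.3, on procedures tested on simulated peaks. Regions were compared in controls with exact two-sided permutation tests, and K27M with control by exact sign flips over 5 matched pairs, since the study's methods account for matched cultures. Both were run for every protein-coding gene, with Benjamini-Hochberg adjustment over genes with a peak in at least 1 library of the comparison. Named genes were the 6 *Irx* genes, the other TALE genes, genes in and beside the clusters, the most alike genes, and the longest shared stretches. Members and lists were chosen with earlier results of these data known. Input libraries have no peak list and were not used here. The most alike genes of *Irx2* and *Irx5* and part of the list of telencephalon markers are not reported here.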

Additional observations from a re-analysis of the deposited data

How the results depend on the processing

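Of 174 recomputed values of the cluster spans, the counts of *Irx* genes and the counts of genes past an adjusted p of 0.05, 169 kept their direction or stayed close in count, and 266 of 276 values of single genes kept their direction. As the designs used in the report cannot reach a p of 0.05, this speaks of direction and not of size. Some of these values could not change. The counts of genes past an adjusted p of 0.05 were fixed at 0 in every run except that with no replicate block. A difference of 0, as for H3K27me3 at the *Irx4* promoter, was also tallied as kept. Neither share is therefore a measure of stability. The K27M differences over the cluster spans for H3K27me3 shrank from -3.43 to -0.61 (IrxA) and from -3.10 to -0.65 (IrxB) at equal peak number. The count of 4 *Irx* genes with H3K27me3 in every telencephalon and no brainstem library was 4 under each alternative run, including an equal number of peaks per library (4739). Leaving out a culture could not lower this count. Peak filters only remove peaks, so they could not change the absence of brainstem peaks at these 4 genes. The count with H3K27me3 in every library was 1 in place of 2 with peaks of −log10 q of at least 3, with fold of at least 3 and with equal peak numbers. The count with H3K4me3 in every telencephalon library was 1 in place of 5 with fold of at least 3.

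Leaving out each culture gave, in percentage points, 5.32 to 9.18 (IrxA) and 3.10 to 7.25 (IrxB) for H3K27me3 between regions, and -4.21 to -2.36 and -3.85 to -2.38 for K27M. The IrxB H3K4me3 regional difference of -0.27 ranged from -0.58 to 0.24, the last without telencephalon culture 59. Promoter differences between regions ranged from -14.2 (without brainstem 61) to 44.9 at *Irx6* for H3K27me3, and for H3K4me3 from -2.96 to 3.49 at *Irx3* (2.56 without brainstem 59 and 3.49 without telencephalon 59), -0.73 (without brainstem 61) to 23.7 at *Irx4*, and -10.2 to 4.68 (without telencephalon 59) at *Irx6*. For K27M and H3K4me3, *Irx2* ranged from -7.22 (without telencephalon 60) to 6.63 and was -1.58 with equal peak numbers, and *Irx5* was 2.28 with fold of at least 3. With the 5'-most transcript start alone, chosen after seeing the data, *Irx1* was -0.1 and *Irx2* -3.39. The cause of these reversals was not tested.

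The pairing by culture number was checked from deviations of control and K27M promoters from their group means. The correlation over 21924 genes was 0.590, 0.370 and -0.0753 for H3K27me3 in telencephalon 59, 60 and 61. For H3K4me3 in the same cultures it was 0.756, 0.440 and 0.547. In the brainstem the correlation was -0.111 for H3K27me3 and 0.0603 for H3K4me3, with the same value in cultures 59 and 61. The data therefore did not show pairing in telencephalon 61 for H3K27me3, or in the brainstem for either mark. With no replicate block, exact permutation p for the K27M difference was 0.0833 (IrxA) and 0.117 (IrxB) for H3K27me3, and no gene passed an adjusted p of 0.05, although 598 (H3K27me3) and 378 (H3K4me3) had an unadjusted p under 0.05. With a replicate block of cultures 59 and 61 across regions, the H3K27me3 differences were 5.32 (IrxA) and 3.43 (IrxB), and no call changed.

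Peak lists show where enrichment passed a caller's threshold, and an absent peak is not an absent mark. With no read counts in the files, single values carry no counting interval.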
